A study of Homo sapiens with 27 samples.

Results

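Mitochondrial ribosomal proteins are the nuclear-encoded proteins of the ribosome inside mitochondria, and their genes carry symbols that start with MRPL or MRPS. They were taken from the count tables by symbol alone, which gave 78 of 20453 genes, 49 named MRPL and 29 named MRPS. The cells were THP-1, a human monocytic leukaemia line that takes on macrophage features when given PMA, a phorbol ester; all groups had it, at 10 ng/ml over 24 h. The 3 treatments lasted 3 h and were LPS+Dex (100 ng/ml of lipopolysaccharide, the bacterial ligand of Toll-like receptor 4, with 1 µM of the synthetic glucocorticoid dexamethasone), LPS alone at the same dose, and vehicle (ethanol and PBS). Poly(A) RNA-seq measured mRNA in 4 replicates per treatment, and ribosome profiling, a sequencing of the stretches of mRNA that ribosomes shield from nuclease (footprints), was run in 5. No group received dexamethasone alone, and a cancer line differentiated with PMA is a model of a macrophage rather than a macrophage from a donor.

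The mitochondrial ribosome translates the few mRNAs that mitochondrial DNA encodes, all of them subunits of the respiratory chain and the ATP synthase. Its proteins are made on cytosolic ribosomes and imported, so the footprints measured here report how much the cytosolic ribosome translates each of these mRNAs. Some members descend from bacterial ribosomal proteins and others were added in the course of mitochondrial evolution; the protein of MRPS30 and that of MRPS18A now sit in the large subunit, in spite of their names, and MRPS36 is today counted to the 2-oxoglutarate dehydrogenase complex.

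RNA libraries held 18966683 to 30665116 counts and footprint libraries 11477048 to 26063343. Levels below are CPM, counts per 1000000 counts of each library after TMM scaling, which are not divided by gene length, so levels were compared between treatments and not between genes. All 10 macrophage markers were tested, and in mRNA 8 of them fell with LPS over vehicle and none rose; among them was CSF1R, the receptor of macrophage colony-stimulating factor, with 651 to 831 CPM in LPS+Dex RNA, 706 to 922 CPM in LPS RNA and 1190 to 1850 CPM in vehicle RNA. Of the markers of other cells, CD3E, MS4A1, EPCAM, KRT18, HBB and MPO stayed at or below 0.435 CPM in RNA, while PECAM1, which monocytic cells also express, reached 417 CPM. ALB, a liver gene, reached 58.9 CPM in 1 LPS+Dex footprint library and at most 7.43 CPM in RNA. COL1A1, a fibroblast gene, was at 21.2 to 25.6 CPM in LPS+Dex RNA, 6.74 to 9.92 CPM in LPS RNA and 5.05 to 7.76 CPM in vehicle RNA, and the part of other cells in the results was not tested. IL6 showed the treatments, with 4.53 to 6.02 CPM in LPS+Dex RNA, 22.6 to 29.1 CPM in LPS RNA and 0.203 to 0.379 CPM in vehicle RNA. The footprint libraries numbered 4 stood apart within each treatment, with TMM factors of 0.6172 in LPS+Dex, 0.6163 in LPS and 0.9334 in vehicle, against 0.9633 to 1.3 in the other 12, so counts are also given without these 3. In bulk samples fewer cells of a kind and less RNA per cell cannot be told apart.

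Of the 78 members, 75 were tested in mRNA, in footprints and in footprints per mRNA, the translational efficiency. MRPL30 and the small-subunit members MRPS17 and MRPS5 were listed at 0 in all 27 libraries. MRPL12, which forms the flexible stalk of the large subunit, was tested on only 40 to 146 counts per library. In the RefSeq annotation 18 members overlap another protein-coding gene, and RefSeq lists 106 pseudogenes with an MRPL or MRPS symbol; how the authors assigned such shared reads is not given in the sources used here.

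Summed over the members, footprints were alike in the 3 treatments after TMM scaling. Together they took 4071 ± 173 CPM with LPS+Dex, 4070 ± 250 CPM with LPS and 3996 ± 162 CPM with vehicle (SD, n = 5 each). In mRNA the sums were 4740 ± 223 CPM with LPS+Dex, 4351 ± 327 CPM with LPS and 4023 ± 547 CPM with vehicle (SD, n = 4 each). These sums depend on the scaling, since as a share of the raw library total the footprints were 3942, 3685 and 4831 CPM and the mRNAs 4568, 4032 and 4494 CPM in LPS+Dex, LPS and vehicle cells. No order of the treatments is therefore read from the sums. The 4 vehicle RNA libraries split, at 4496, 4486, 3455 and 3655 CPM for replicates 1 to 4, and only replicates 3 and 4 lay below the lowest LPS library at 4057 CPM. The same 2 vehicle libraries held the least RNA of the 13 mitochondrially encoded mRNAs, at 888.4 and 1291 CPM against 1554 and 1763 CPM in vehicle replicates 1 and 2. Results of the members without each of them are given with the comparisons to vehicle. In footprints the library numbered 4 had the lowest sum of each treatment, at 3811 CPM with LPS+Dex, 3686 CPM with LPS and 3718 CPM with vehicle.

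**Figure D1:**
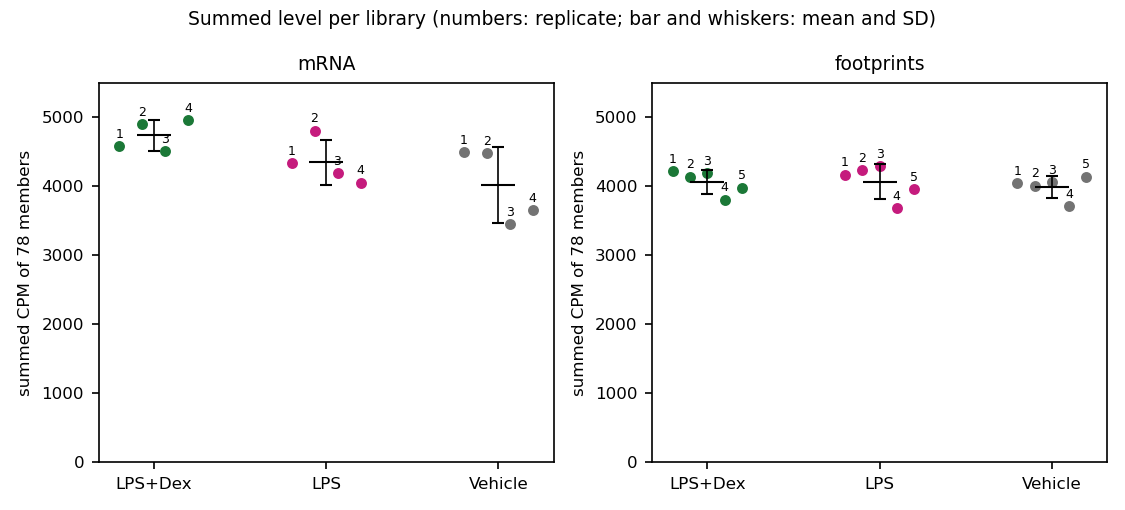
Summed CPM of the 78 members in each library for mRNA (left) and footprints (right), with LPS+Dex, LPS and vehicle from left to right; points are libraries labelled by replicate number, and bars and whiskers are the mean and SD. The footprint means lie between 3996 and 4071 CPM, whereas vehicle RNA replicates 3 and 4 fall below the other RNA libraries.

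After 3 h of LPS the members went both ways. In mRNA 18 of 75 tested members rose and 10 fell against vehicle, and in footprints 18 rose and 15 fell, at an adjusted p under 0.05 (edgeR quasi-likelihood test, Benjamini-Hochberg over all genes). That is 37.3% of the members in mRNA, against 62.2% of all 13327 genes tested (28.6% higher, 33.6% lower), and 44% in footprints, against 52.6% of 12197 genes (25.4% higher, 27.2% lower). The median change was 0.085 on the log2 scale in mRNA, against -0.047 over all genes, and -0.049 in footprints, against -0.038 over all genes. The mRNA median was 0.026 without vehicle replicate 3 and 0.045 without vehicle replicate 4, and the footprint median was 0.031 without LPS replicate 4. Changes ran from -0.94 to 0.72 in mRNA and from -1.25 to 0.60 in footprints on the log2 scale, and 2 members, MRPL55 and MRPL34, passed 2-fold, both in footprints.

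**Figure D2:**
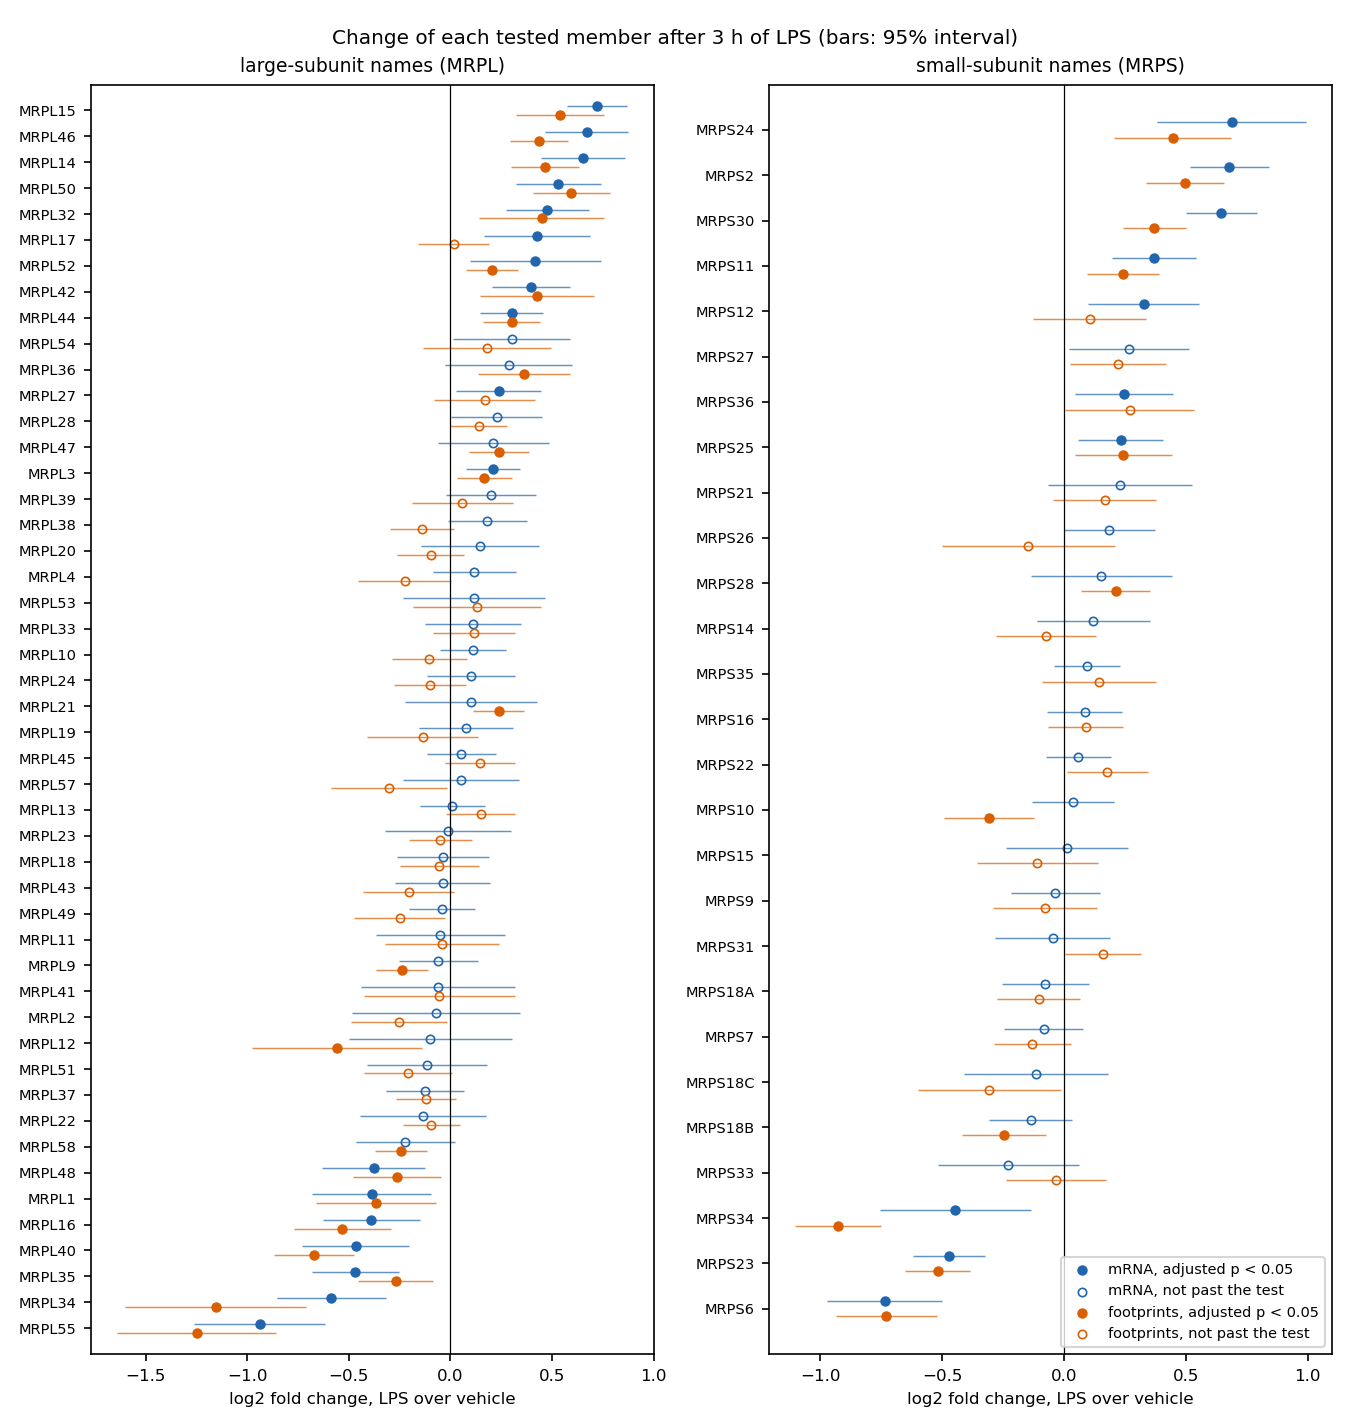
Log2 fold change of LPS over vehicle for each tested member, ordered by its mRNA change, with members named MRPL on the left and MRPS on the right; blue is mRNA, orange is footprints, filled points passed an adjusted p of 0.05 and bars are 95% intervals. MRPL55, MRPL34, MRPS34 and MRPS6 form the low end and MRPL15, MRPL46, MRPS24 and MRPS2 the high end.

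mRNA and footprints moved together. Of the 28 members called in mRNA and the 33 called in footprints, 24 were called in both with the same sign, 14 higher and 10 lower, which is 85.7% of the mRNA calls and 72.7% of the footprint calls, and none had opposite signs. Across the 75 members the log2 changes of the 2 assays correlated at r = 0.89, a description over genes that share libraries and depth. Neither the overlap of calls nor the correlation was computed over all genes, so neither is read as particular to the members. The 10 that fell in both were MRPL1, MRPL16, MRPL34, MRPL35, MRPL40, MRPL48, MRPL55, MRPS6, MRPS23 and MRPS34. The 14 that rose in both were MRPL3, MRPL14, MRPL15, MRPL32, MRPL42, MRPL44, MRPL46, MRPL50, MRPL52, MRPS2, MRPS11, MRPS24, MRPS25 and MRPS30. Leaving out 1 footprint library lost the MRPL3 footprint call in 5 of 15 cases, with edgeR adjusted p up to 0.101. MRPL12, MRPL58, MRPL9, MRPS10 and MRPS18B fell in footprints alone, MRPL21, MRPL36, MRPL47 and MRPS28 rose in footprints alone, and MRPL17, MRPL27, MRPS12 and MRPS36 rose in mRNA alone; with the replicate block MRPL27 and MRPS36 passed in footprints too (edgeR adjusted p = 0.0196 and 0.0486). Whether the 2 assays differ for these members is the translational efficiency test given further down.

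By subunit, 12 of 50 large-subunit members rose (24%) and 7 fell (14%) in mRNA. Of 24 small-subunit members 5 rose (20.8%) and 3 fell (12.5%), where 28.6% of all genes rose and 33.6% fell. In footprints 13 of 50 rose (26%) and 10 fell (20%) in the large subunit. The small subunit had 5 of 24 higher and 5 lower (20.8% each), against 25.4% and 27.2% of all genes. The next counts are of mRNA. Among large-subunit proteins with a bacterial counterpart 6 of 29 rose and 5 fell, and among those specific to mitochondria 6 of 21 rose and 2 fell. The small subunit had 4 higher and 1 lower of 14 with a bacterial counterpart, and 1 higher and 2 lower of 10 specific to mitochondria. Calls in both directions were thus present in each subunit.

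MRPL55, the mitochondrial counterpart of bacterial L31, had the largest fall. Its mRNA was at 42.6, 50.5, 36.5 and 36.5 CPM in LPS cells, against 91.9, 96.7, 61.6 and 68.5 CPM in vehicle cells. Its footprints were at 28.0, 24.5, 21.4, 14.7 and 22.2 CPM in LPS cells, against 61.4, 48.4, 58.5, 43.3 and 52.4 CPM in vehicle cells. The groups did not overlap in either assay, and the log2 change was -0.94 ± 0.15 (SE) in mRNA (edgeR adjusted p = 8.95e-05) and -1.25 ± 0.18 in footprints (edgeR adjusted p = 4.32e-05).

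MRPL34, the counterpart of bacterial L34, was next in footprints. LPS cells had 20.3, 22.0, 17.8 and 19.3 CPM of its mRNA, against 34.9, 32.4, 24.4 and 27.6 CPM in vehicle cells. In footprints LPS cells had 15.5, 19.1, 14.8, 9.86 and 21.8 CPM, against 38.7, 40.3, 36.5, 22.4 and 43.0 CPM in vehicle cells. The highest LPS library lay just below the lowest vehicle library in both assays, and replicate 4 was the lowest footprint library of each group. The log2 change was -0.59 ± 0.12 in mRNA (edgeR adjusted p = 0.000973) and -1.16 ± 0.21 in footprints (edgeR adjusted p = 0.000267). MRPL34 overlaps ABHD8, whose own counts changed by -1.16 ± 0.10 in mRNA and -2.0 ± 0.32 in footprints (log2, LPS over vehicle); the part of shared reads in MRPL34 was not tested.

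MRPS34 is a small-subunit protein found in mitochondria and not in bacteria, and it is required for a stable small subunit. Its footprints were at 41.9, 44.6, 39.0, 35.8 and 44.1 CPM in LPS cells, against 80.9, 75.4, 82.7, 66.8 and 84.9 CPM in vehicle cells. Its mRNA was at 60.7, 80.1, 58.7 and 52.3 CPM in LPS cells, against 96.4, 100.0, 67.4 and 79.2 CPM in vehicle cells, so the groups overlapped in mRNA and stood well apart in footprints. The log2 change was -0.45 ± 0.14 in mRNA (edgeR adjusted p = 0.0157) and -0.93 ± 0.08 in footprints (edgeR adjusted p = 2.76e-07). The mRNA call was lost without LPS replicate 4, at an edgeR adjusted p of 0.0538. EME2, which overlaps MRPS34, changed by -0.26 ± 0.09 in mRNA and by 0.15 ± 0.14 in footprints, the second not past the test.

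MRPS6, the counterpart of bacterial S6, fell to the same extent in both assays. Its mRNA was at 54.6, 65.4, 51.6 and 49.1 CPM in LPS cells, against 95.6, 106, 79.1 and 87.0 CPM in vehicle cells. In footprints it had 55.1, 59.1, 57.5, 55.0 and 56.3 CPM in LPS cells, against 87.6, 84.1, 92.2, 86.3 and 119 CPM in vehicle cells. The groups did not overlap, and the log2 change was -0.74 ± 0.11 in mRNA (edgeR adjusted p = 4.93e-05) and -0.73 ± 0.10 in footprints (edgeR adjusted p = 1.58e-05). The sodium/myo-inositol transporter gene SLC5A3 shares its locus with MRPS6; its own change with LPS was -0.42 ± 0.25 in mRNA and -0.44 ± 0.38 in footprints, neither past the test.

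MRPL40, which lies in the region of chromosome 22 deleted in DiGeorge syndrome, fell by 0.47 in mRNA and by 0.67 in footprints on the log2 scale. Its footprints ran from 26.4 to 37.4 CPM in LPS cells and from 46.1 to 58.3 CPM in vehicle cells. MRPS23 fell by 0.47 in mRNA and 0.52 in footprints, with 63.5 to 74.0 CPM of footprints in LPS cells and 94.8 to 104 CPM in vehicle cells. MRPL35 fell by 0.47 and 0.27, MRPL16 by 0.39 and 0.53, and MRPL1 by 0.39 and 0.37, in mRNA and footprints in that order. MRPL35 overlapped in footprints, with LPS libraries up to 36.6 CPM and vehicle libraries from 34.5 CPM. MRPL16 overlapped in mRNA, with LPS libraries up to 41.8 CPM and vehicle libraries from 40.1 CPM. Leaving out 1 footprint library lost the MRPL35 footprint call in 2 of 15 cases, with edgeR adjusted p up to 0.0579. For MRPL1 the LPS and vehicle libraries overlapped in both assays, and its footprint call was lost without any 1 of 10 of the 15 footprint libraries, with edgeR adjusted p up to 0.134. Its mRNA call was lost in 4 of 12 such cases, with edgeR adjusted p up to 0.0776, and its mRNA rise with LPS+Dex over LPS in 3 of 12.

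The rises were led by MRPL15, the counterpart of bacterial L15. LPS cells had 205, 211, 197 and 187 CPM of its mRNA, against 133, 125, 110.0 and 117 CPM in vehicle cells. In footprints LPS cells had 183, 207, 220.0, 171 and 194 CPM, against 132, 142, 138, 108 and 150.0 CPM in vehicle cells. Every LPS library exceeded every vehicle library, with a log2 change of 0.72 ± 0.07 in mRNA (edgeR adjusted p = 6.81e-07) and 0.54 ± 0.10 in footprints (edgeR adjusted p = 0.000366).

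MRPS2, whose protein sits at the mRNA exit side of the small subunit, rose as evenly. Its mRNA was at 73.2, 82.9, 83.0 and 80.1 CPM in LPS cells, against 54.7, 50.8, 44.2 and 49.8 CPM in vehicle cells. Footprints stood at 83.6, 79.1, 70.9, 69.2 and 80.8 CPM in LPS cells, against 58.2, 51.4, 55.8, 55.7 and 50.7 CPM in vehicle cells. The groups did not overlap, and the log2 change was 0.68 ± 0.08 in mRNA (edgeR adjusted p = 3.15e-06) and 0.50 ± 0.07 in footprints (edgeR adjusted p = 5.7e-05).

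MRPL50, a large-subunit protein specific to mitochondria, had the largest footprint rise. In footprints LPS cells had 39.9, 45.5, 53.3, 45.2 and 43.6 CPM, against 27.8, 27.2, 30.6, 33.2 and 31.8 CPM in vehicle cells. Its mRNA was at 28.0, 28.4, 26.5 and 26.1 CPM in LPS cells, against 20.4, 21.7, 17.1 and 16.3 CPM in vehicle cells. The log2 change was 0.53 ± 0.10 in mRNA (edgeR adjusted p = 0.000299) and 0.60 ± 0.09 in footprints (edgeR adjusted p = 4.59e-05), again with no overlap between groups.

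MRPS30, the large-subunit protein with a small-subunit name, was at 61.4, 67.5, 65.3 and 61.1 CPM of mRNA in LPS cells, against 41.6, 44.3, 39.0 and 38.4 CPM in vehicle cells. Footprints stood at 100.0, 104, 98.6, 99.9 and 89.4 CPM in LPS cells, against 73.5, 74.4, 72.3, 83.0 and 77.2 CPM in vehicle cells. The change was 0.65 ± 0.07 in mRNA (edgeR adjusted p = 1.67e-06) and 0.37 ± 0.06 in footprints (edgeR adjusted p = 0.000123), with every LPS library above every vehicle library. MRPS24 rose by 0.69 in mRNA and 0.45 in footprints, MRPL46 by 0.67 and 0.44, MRPL14 by 0.65 and 0.47, and MRPL32, whose protein is matured by the m-AAA protease, by 0.48 and 0.45. MRPL14 overlaps TMEM63B, which itself changed by 1.04 ± 0.05 in mRNA and 0.99 ± 0.29 in footprints, and the 2 genes' shared reads were not tested.

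**Figure D3:**
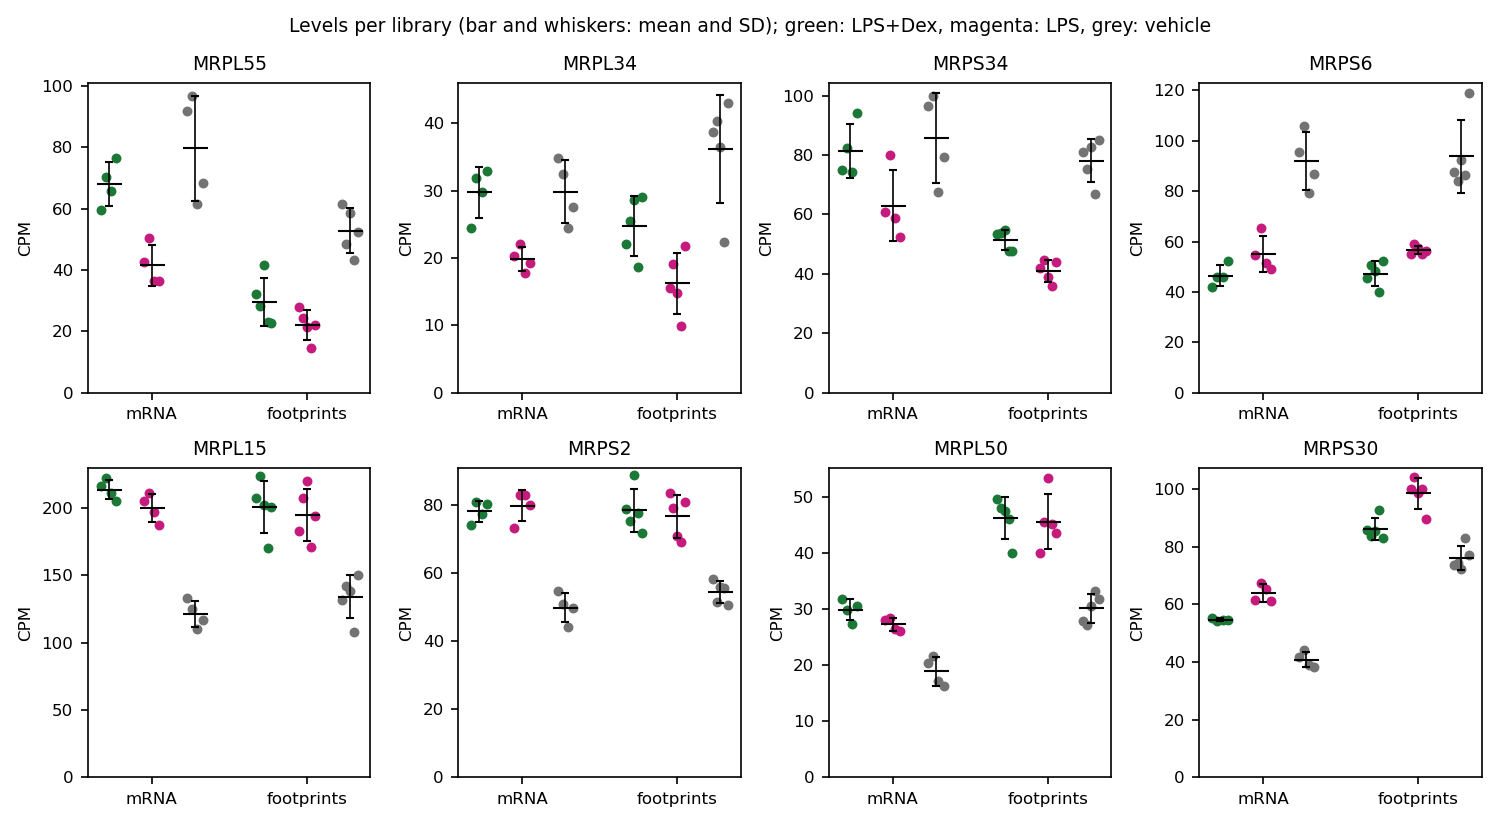
CPM per library of 8 members in mRNA and footprints, with LPS+Dex (green), LPS (magenta) and vehicle (grey) from left to right within each assay; bars and whiskers are the mean and SD. The upper row shows members that fell with LPS and the lower row members that rose; in the upper row MRPS6 had 41.8 to 52.1 CPM of mRNA with LPS+Dex, against 49.1 to 65.4 CPM with LPS.

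Several members of known role did not pass the test in mRNA. MRPL10, which anchors the stalk, and MRPL11 at its base had mRNA changes of 0.11 ± 0.08 and -0.05 ± 0.15, and MRPL12 of -0.10 ± 0.19. MRPL12 fell by 0.56 ± 0.20 in footprints (edgeR adjusted p = 0.0262), with 2.50 to 3.48 CPM in LPS cells and 2.99 to 5.4 CPM in vehicle cells, so that the groups overlapped. That call was lost without LPS replicate 3 or 5 or vehicle replicate 1 or 3, with edgeR adjusted p up to 0.0839. MRPS12 of the decoding centre rose by 0.33 ± 0.11 in mRNA and had a footprint change of 0.10 ± 0.11 that did not pass; its mRNA call was lost without LPS replicate 2 or vehicle replicate 4, with edgeR adjusted p up to 0.0551. MRPL58, which can release stalled peptides, fell by 0.24 ± 0.06 in footprints, and MRPL45, which helps to hold the ribosome at the inner membrane, had changes of 0.05 ± 0.08 in mRNA and 0.15 ± 0.08 in footprints. Of the 3 paralogs of bacterial S18, MRPS18B fell by 0.25 in footprints. Leaving out 1 footprint library lost this call in 4 of 15 cases, with edgeR adjusted p up to 0.0552. MRPS18A and MRPS18C had footprint changes of -0.10 and -0.31 that did not pass. That of MRPS18C passed with the replicate block (edgeR adjusted p = 0.0338).

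The start regions of the members were read from RefSeq (GRCh38.p14), where 69 of the 78 had a window of 250 bases before to 50 after the annotated start. Motifs known from genes of mitochondrial proteins were searched on both strands. The letters CCGGAAG, the core bound by ETS-family factors such as GABPA, stood in 43.5% of the members' windows and in 16.5% of the windows of 15843 protein-coding genes. AAGATGGC, the core bound by YY1, stood in 30.4% of the members' windows and 4.66% of all. GCGCNTGCG, the core bound by NRF1, stood in 17.4% and 12.5%. None of the motifs contains another. Of the 16 members with a window whose mRNA rose with LPS, 8 held the YY1 letters and 4 the ETS letters. Of the 9 with a window whose mRNA fell, 0 held the YY1 letters and 5 the ETS letters. In all, 21 members held the YY1 letters and 30 the ETS letters, so most holders of either were called neither higher nor lower in mRNA. These are counts in few genes with no test, and a match is not a shown binding site.

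The YY1 letters of 7 of the 8 members that rose are shown in capitals with the bases around them, 30 bases per match, because this motif was found in members that rose and in none that fell, a choice made with the counts known; GCCATCTT is the same motif read on the other strand. In MRPL42, MRPL46, MRPL50, MRPS24 and MRPS30 the match began at bases 9 to 24, with the annotated start counted as the first base. It contains the letters ATG.
MRPL42, chr12:93467511-93467540, plus strand: aggattgaaacAAGATGGCgggttcgtggt
MRPL46, chr15:88467362-88467391, minus strand: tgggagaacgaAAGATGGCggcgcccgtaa
MRPL50, chr9:101398577-101398606, minus strand: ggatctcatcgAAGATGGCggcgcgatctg
MRPS24, chr7:43869480-43869509, minus strand: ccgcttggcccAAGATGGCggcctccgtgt
MRPS30, chr5:44808949-44808978, plus strand: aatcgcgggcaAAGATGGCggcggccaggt
MRPL52, chr14:22829778-22829807, plus strand: tacgatgacccAAGATGGCggagccgtgat
MRPL52, chr14:22829812-22829841, plus strand: aacccagattcAAGATGGCgacttcctgct
MRPL32, chr7:42932143-42932172, plus strand: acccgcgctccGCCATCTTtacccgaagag

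The ETS letters of 5 members that fell are shown next, in capitals, for comparison, and those of the 4 members that rose are not shown. All matches shown begin before the start, from 6 bases upstream in MRPL16, where the last base is the start itself, to 71 in MRPS34. CTTCCGG is the other strand of CCGGAAG. MRPS34 had 3 matches within the 120 bases before its start, of which the whole stretch is given. MRPL55 and MRPS6, the members with the largest mRNA falls, held none of the 3 motifs in the 120 bases before the start.
MRPL16, chr11:59810766-59810795, minus strand: agtgaacacaaCTTCCGGccccactgagcg
MRPL40, chr22:19432523-19432552, plus strand: ggggcgcacgcCCGGAAGcggcgagggtag
MRPL48, chr11:73787800-73787829, plus strand: aatttcagaagCTTCCGGaactaaaatgat
MRPS23, chr17:57850040-57850069, minus strand: tggagcagccgCTTCCGGttccggtagcag
MRPS34, chr16:1773135-1773254, minus strand: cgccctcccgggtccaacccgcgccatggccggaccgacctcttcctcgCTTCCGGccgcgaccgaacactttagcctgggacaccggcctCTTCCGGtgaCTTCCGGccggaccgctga

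Adding dexamethasone to LPS changed few members. In mRNA 7 of 75 were higher and 2 lower in LPS+Dex than in LPS cells, 12% against 30.9% of all genes (15.5% higher, 15.4% lower), with a median change of 0.132 against 0.011 over all genes. The higher ones were MRPL1, MRPL34, MRPL40, MRPL41, MRPL55, MRPS23 and MRPS26, and the lower ones MRPS27 and MRPS30. With DESeq2's size factors the split was 6 higher and 3 lower, MRPS26 dropping out and MRPL42 coming in as lower. The count was 2, MRPL34 and MRPL55, without the 3 RNA libraries numbered 4, and 5 without LPS+Dex replicate 2 or without LPS replicate 3. The shares of all genes called in mRNA were then 21.2%, 25% and 24.6%, in that order. In footprints 1 member rose, MRPS34, and 3 fell, MRPL33, MRPS24 and MRPS30, 5.33% against 17.1% of all genes (9.08% higher, 7.99% lower). Leaving out 1 footprint library at a time gave 1 to 6 calls; it was 1 without LPS+Dex replicate 1 or 2 or LPS replicate 1, 2 or 3, and 2 without LPS+Dex replicate 3 or 5 or vehicle replicate 2 or 3. With the replicate number as a block, 12 of 75 members passed in footprints, 6 higher and 6 lower, where 30.9% of all genes passed. MRPL16, MRPL34, MRPL40, MRPL41 and MRPL55 joined MRPS34 among the higher, and MRPL42, MRPS6 and MRPS27 came in among the lower.

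MRPL55 had 59.6, 70.2, 65.8 and 76.5 CPM of mRNA in LPS+Dex cells, all above the highest LPS library at 50.5 CPM. Its mRNA rose by 0.71 ± 0.15 on the log2 scale (edgeR adjusted p = 0.00226). Its footprints were at 32.2, 28.2, 41.7, 23.1 and 22.7 CPM in LPS+Dex cells, which overlapped the LPS range of 14.7 to 28.0 CPM, with a change of 0.41 ± 0.18 (edgeR adjusted p = 0.154, and 0.0112 with the replicate block). Set against vehicle, LPS+Dex cells had a log2 change of -0.23 ± 0.15 in mRNA, not past the test, and of -0.84 ± 0.18 in footprints (edgeR adjusted p = 0.00156).

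MRPL34 had 24.4, 31.9, 29.8 and 32.9 CPM of mRNA in LPS+Dex cells, all above the 17.8 to 22.0 CPM of LPS cells, a rise of 0.58 ± 0.12 (edgeR adjusted p = 0.00254). Its footprints were at 22.0, 25.5, 28.6, 18.6 and 29.0 CPM in LPS+Dex cells, against 9.86 to 21.8 CPM in LPS cells, so the groups overlapped, with a change of 0.60 ± 0.21 (edgeR adjusted p = 0.0604, and 6.24e-05 with the replicate block). The overlapping ABHD8 rose by 1.00 ± 0.10 in mRNA and 1.42 ± 0.32 in footprints. MRPL40 rose by 0.38 ± 0.12 in mRNA, at 30.6, 34.3, 34.5 and 34.9 CPM in LPS+Dex cells and 24.1 to 29.4 CPM in LPS cells, a call lost without LPS+Dex replicate 2, 3 or 4 or LPS replicate 1, 3 or 4, with edgeR adjusted p up to 0.0825.

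MRPS34 footprints rose with LPS+Dex over LPS. It had 53.3, 53.7, 54.7, 47.8 and 47.6 CPM in LPS+Dex cells, against 35.8 to 44.6 CPM in LPS cells, with no overlap and a log2 change of 0.32 ± 0.08 (edgeR adjusted p = 0.0129). All LPS+Dex libraries still lay below the 66.8 CPM of the lowest vehicle library, with a change of -0.60 ± 0.08 against vehicle (edgeR adjusted p = 2.76e-05). Its mRNA was at 75.0, 82.3, 74.3 and 94.0 CPM in LPS+Dex cells, with a change of 0.37 ± 0.14 over LPS that did not pass (edgeR adjusted p = 0.0684).

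MRPL41, a large-subunit protein specific to mitochondria, had passed the test with LPS over vehicle in neither assay, with a log2 change of -0.06 ± 0.18 in mRNA. LPS+Dex cells had 69.7, 84.8, 69.0 and 91.1 CPM of its mRNA, against 47.5, 62.1, 51.8 and 39.6 CPM in LPS cells and 60.9, 67.0, 41.0 and 40.9 CPM in vehicle cells. All LPS+Dex libraries exceeded all others, with a log2 change of 0.65 ± 0.18 over LPS (edgeR adjusted p = 0.0125) and 0.59 ± 0.18 over vehicle (edgeR adjusted p = 0.0107). Without the 3 RNA libraries numbered 4 the edgeR adjusted p over LPS was 0.0932 and over vehicle 0.0799. Its footprints did not pass over LPS in the main fit. They were at 72.9 to 123 CPM in LPS+Dex cells and 62.5 to 95.6 CPM in LPS cells, which overlap. They passed over LPS with the replicate block, at a log2 change of 0.29 (edgeR adjusted p = 0.00178), and without the 3 footprint libraries numbered 4, at 0.32 (edgeR adjusted p = 0.0346).

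MRPS27, a pentatricopeptide-repeat protein that binds RNA, had the largest mRNA fall with LPS+Dex. LPS+Dex cells had 61.7, 53.8, 60.6 and 49.5 CPM, against 82.7, 66.4, 83.8 and 82.2 CPM in LPS cells, a log2 change of -0.48 ± 0.12 (edgeR adjusted p = 0.00548). The groups did not overlap, and the edgeR adjusted p was 0.0612 without the 3 RNA libraries numbered 4. Its footprints had a change of -0.28 ± 0.09 (edgeR adjusted p = 0.0552, and 0.0076 with the replicate block). With LPS over vehicle MRPS27 passed in neither assay in the main fits. With the replicate block it rose by 0.27 in mRNA (edgeR adjusted p = 0.0152) and 0.21 in footprints (edgeR adjusted p = 0.014). DESeq2 also called both rises, at adjusted p of 0.0207 in mRNA and 0.0268 in footprints. MRPS30 fell in both assays, by 0.22 ± 0.07 in mRNA and 0.19 ± 0.06 in footprints, with LPS+Dex RNA libraries at 54.2 to 55.4 CPM and LPS libraries at 61.1 to 67.5 CPM. MRPS24 footprints fell by 0.37 ± 0.11, at 29.8 to 41.8 CPM in LPS+Dex cells and 37.1 to 52.1 CPM in LPS cells, which overlap. Leaving out 1 footprint library lost the footprint call of MRPS24 in 10 of 15 cases, that of MRPL33 in 10 and that of MRPS30 in 8, and leaving out 1 RNA library lost the MRPS30 mRNA call in 3 of 12.

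MRPS6 stayed below every vehicle library. LPS+Dex cells had 41.8, 45.9, 46.1 and 52.1 CPM of its mRNA and 45.5, 50.5, 48.3, 39.9 and 52.2 CPM of its footprints. Against LPS the log2 change was -0.25 ± 0.11 in mRNA and -0.26 ± 0.10 in footprints, neither past the test (edgeR adjusted p = 0.109 and 0.0849; 0.0141 for the footprints with the replicate block). Against vehicle it was -0.98 ± 0.11 in mRNA (edgeR adjusted p = 3.93e-06) and -0.99 ± 0.10 in footprints (edgeR adjusted p = 9.91e-07), the largest fall of any tested member in that comparison in either assay. The neighbouring SLC5A3 changed by -1.89 ± 0.26 in mRNA and -1.34 ± 0.39 in footprints over vehicle, both past the test, and reads shared with MRPS6 were not tested.

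**Figure D4:**
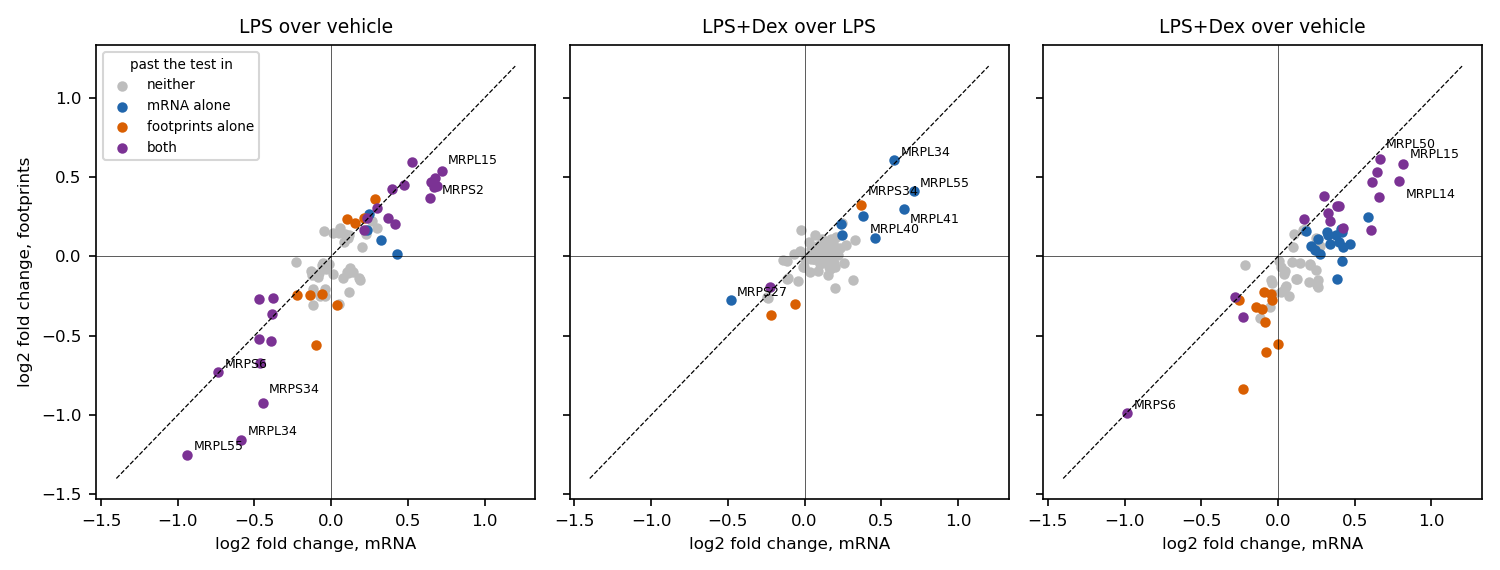
Log2 fold change in mRNA (x) against footprints (y) for the 75 tested members in LPS over vehicle, LPS+Dex over LPS and LPS+Dex over vehicle; colours mark in which assay a member passed an adjusted p of 0.05 and the dashed line marks equal change. In the right panel many members lie to the right of 0 in mRNA and near 0 in footprints, and MRPS6 stands alone at the low end.

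Against vehicle, and after TMM scaling, LPS+Dex cells showed the most one-sided picture in mRNA. There 31 of 75 members rose and 3 fell (MRPS6, MRPL35 and MRPS23), 45.3% against 60.2% of all genes (29.2% higher, 31.0% lower), with a median change of 0.20 against -0.03 over all genes. Leaving out 1 RNA library lost the MRPL35 mRNA call in 5 of 12 cases, with edgeR adjusted p up to 0.0813. MRPL15 led with a log2 change of 0.82 ± 0.07 (edgeR adjusted p = 2.24e-07), ahead of MRPL14 at 0.79 ± 0.10 and MRPL50 at 0.66 ± 0.10. In footprints 14 members were higher and 13 lower, 36% against 46.4% of all genes (24.4% higher, 22.0% lower), and a median of -0.037 against 0.005. Both assays called the same 17 members with the same sign, which is 50% of the mRNA calls and 63% of the footprint calls. The matching overlap over all genes was not computed. A further 17 rose in mRNA alone, among them MRPL17, MRPL20, MRPL41 and MRPS26, and 10 fell in footprints alone, among them MRPL55, MRPL34, MRPL40 and MRPS34. The MRPL34 call was lost in 7 of 15 cases when 1 footprint library was left out, with edgeR adjusted p up to 0.108, and with no filter on low counts (edgeR adjusted p = 0.0502). This comparison shares its LPS+Dex samples with the comparison to LPS and its vehicle samples with that of LPS to vehicle. The split into higher and lower rests on the TMM scaling. Its factors were 0.958 to 0.973 in LPS+Dex RNA and 1.096 to 1.141 in vehicle RNA. As a share of raw library totals the summed mRNA was 4568 CPM with LPS+Dex and 4494 CPM with vehicle. The mRNA count was 26 (23 higher, 3 lower) without vehicle replicate 3 and as many without vehicle replicate 4, with medians of 0.14 and 0.158, and it was 15 (13 higher, 2 lower) without the 3 RNA libraries numbered 4. Of all genes 57.9%, 55% and 50.8% were called in mRNA in these settings, in that order. The footprint count was 41 with the replicate block (22 higher, 19 lower) and 41 without the 3 footprint libraries numbered 4 (18 higher, 23 lower). The shares of all genes in these 2 settings are not given here. The number lower moved with single libraries, to 7 without vehicle replicate 2, 3 or 5, 8 without vehicle replicate 1 or LPS+Dex replicate 1 or 4, and 17 without vehicle replicate 4, beside 11 to 14 higher.

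**Figure D5:**
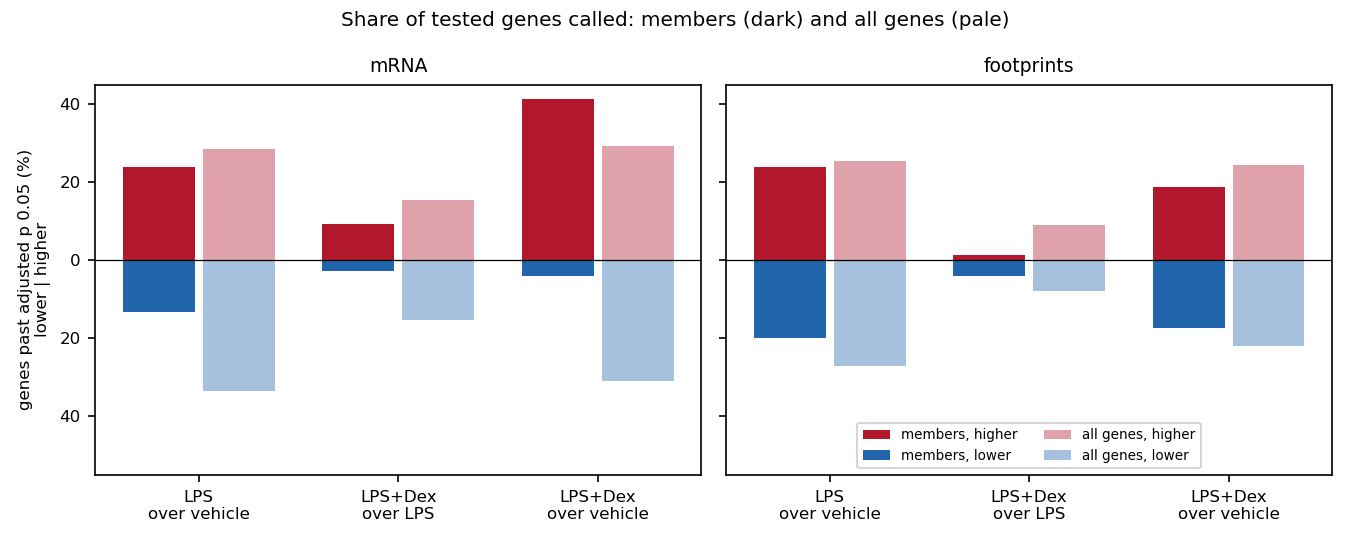
Percent of tested genes past an adjusted p of 0.05, higher above and lower below the zero line, for members (dark) and all genes (pale) in mRNA (left) and footprints (right). With LPS+Dex over vehicle 41.3% of members rose and 4.0% fell in mRNA, against 18.7% and 17.3% in footprints.

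Footprints per mRNA gave no call. With LPS over vehicle, LPS+Dex over LPS and LPS+Dex over vehicle, 0 of 75 members passed the edgeR interaction test at an adjusted p under 0.05, against 1.51%, 0.0366% and 1.54% of 13679 genes. At an unadjusted p under 0.05 there were 5, 3 and 7 members in the same order. With no change at all about 1 in 20 tests would pass that threshold, and the share of all genes at it is not given here. DESeq2 called 0, 0 and 1, the last being MRPL17, lower in LPS+Dex than in vehicle cells. The smallest edgeR adjusted p values were 0.235 for MRPS30, 0.831 for MRPS33 and 0.135 for MRPL17. With the replicate block, 2 members passed with LPS over vehicle, MRPL34 at -0.55 and MRPS34 at -0.45 on the log2 scale, and 6 with LPS+Dex over vehicle, MRPL17, MRPL20, MRPL34, MRPL52, MRPL55 and MRPS34, all lower. In footprints the block raised the share of all genes called with LPS over vehicle from 52.6% to 67.1%. For footprints per mRNA the share of all genes with the block is not given here.

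The intervals bound such changes and do not show that they are absent. MRPS34 had a change in footprints per mRNA of -0.45 with LPS over vehicle (95% interval -0.82 to -0.08, edgeR adjusted p = 0.291) and -0.50 with LPS+Dex over vehicle (95% interval -0.87 to -0.13, edgeR adjusted p = 0.176). MRPL34 had -0.53 with LPS over vehicle (95% interval -1.10 to 0.04). MRPS6 had 0.04 (95% interval -0.30 to 0.38) and MRPS23 -0.01 (95% interval -0.23 to 0.20), with LPS over vehicle. With LPS+Dex over vehicle 65 of 75 members had an estimate below 0, with a median of -0.176, where 44.5% of all genes were below 0 and their median was 0.047. With LPS+Dex over LPS 64 of 75 lay below 0, with a median of -0.10, against 44.9% of all genes and a median of 0.033. With LPS over vehicle 45 of 75 lay below 0, against 47.6% of all genes. Members share libraries. The median with LPS over vehicle, -0.034, turned to 0.021 without vehicle RNA replicate 3, 0.012 without vehicle RNA replicate 4, 0.018 without LPS footprint replicate 4 and 0.004 without LPS RNA replicate 2. The median with LPS+Dex over vehicle was -0.109 without vehicle RNA replicate 3 and -0.13 without vehicle RNA replicate 4.

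The rest of the machinery around the mitochondrial ribosome was followed with lists compiled from textbook knowledge. The shares called in mRNA with LPS over vehicle are to be read against the 62.2% of all genes. Of 5 ribosomal proteins that carry other names, 2 rose in mRNA with LPS, led by DAP3, a small-subunit GTPase, at 0.52 ± 0.07 in mRNA and 0.53 ± 0.06 in footprints. GADD45GIP1 of the large subunit fell by 0.37 ± 0.11 in footprints. Of 16 translation factors 5 rose and 2 fell in mRNA, or 43.8%; the elongation factor GFM1 rose by 0.52 ± 0.11 in mRNA and 0.56 ± 0.06 in footprints, and the initiation factor MTIF3 fell by 0.30 ± 0.12 and 0.57 ± 0.14. Of 19 genes that charge mitochondrial tRNAs 5 rose and 6 fell, or 57.9%, with WARS2 up by 0.83 ± 0.08 and NARS2 down at -0.63 ± 0.10 in mRNA.

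Of 28 assembly factors 11 rose and 6 fell in mRNA with LPS, or 60.7%, close to the share of all genes. NSUN4, which modifies the ribosomal RNA of the small subunit and joins the subunits, rose by 0.87 ± 0.07 in mRNA and 0.81 ± 0.06 in footprints. METTL17 fell by 0.67 ± 0.13 in mRNA and 0.62 ± 0.12 in footprints. With LPS+Dex over LPS 2 of the 28 rose and 2 fell in mRNA, or 14.3% against 30.9% of all genes, and TFB1M, which methylates the small-subunit ribosomal RNA, rose by 0.53 ± 0.10 in mRNA and 0.40 ± 0.10 in footprints.

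Of 15 genes of mitochondrial transcription and biogenesis 7 rose and 1 fell in mRNA with LPS, or 53.3%. The exoribonuclease gene PNPT1 rose by 1.96 ± 0.07 in mRNA and fell by 0.72 ± 0.06 with LPS+Dex over LPS. TFAM, which packs and transcribes mitochondrial DNA, rose by 0.51 ± 0.13 with LPS and fell by 0.42 ± 0.14 with LPS+Dex over LPS in mRNA. MYC rose by 1.01 ± 0.07 with LPS. With LPS+Dex over LPS 1 of the 15 rose in mRNA, MYC, and 3 fell, or 26.7% against 30.9% of all genes. The 13 mitochondrially encoded mRNAs had 3 rises and no fall in mRNA with LPS over vehicle (23.1%) and 11 rises with LPS+Dex over vehicle (84.6% against 60.2% of all genes), with a median log2 change of 0.84 in the second. Their summed RNA was 2437 ± 696 CPM with LPS+Dex, 1896 ± 393 CPM with LPS and 1374 ± 377 CPM with vehicle (SD, n = 4 each). LPS+Dex replicate 4 held 3313 CPM, against 1843 to 2678 CPM in the other LPS+Dex libraries, and vehicle replicates 3 and 4 held the least. Results without single libraries are not given for these mRNAs, which share their libraries. Their summed footprints were 4.802 to 17.56 CPM over all 15 libraries.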

How the data were processed

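The authors deposited raw counts of reads per Ensembl gene for 12 RNA-seq and 15 footprint libraries. The submitters' processing notes name DESeq2 1.26.0, featureCounts 2.0.1 and STAR 2.7.10a, with Bowtie2 2.4.5 for footprints, and the build GRCh38/hg38. Annotation release, counted feature, strand setting and handling of multiply mapped reads: not given in the sources used here. Symbols came from a gene name table. Counts were tested with edgeR 4.0.16 (R 4.3.3; filterByExpr with minimum count 10 and minimum total 15; TMM; quasi-likelihood F test, 2-sided; Benjamini-Hochberg over all genes), in 1 fit of 3 treatments per assay and 1 fit of all 27 libraries for footprints per mRNA. DESeq2 1.42.0, other size factors, no filter, a replicate block and left-out libraries were the alternatives. Intervals use the t quantile at edgeR's degrees of freedom, and an SE is the log2 change over the root of F. The fits were tested on simulated 2-fold changes, of which the fit of footprints per mRNA recovered the fewest. The limit for passing was lowered after that result was seen. Smaller changes were not simulated, and no member reached 2-fold in footprints per mRNA. Members and gene lists were chosen with earlier results of these data known. Named members are a panel of known role and, per comparison, the 5 largest called rises and falls; listed genes are the largest called change of each list. Further members are named where a count of calls is spelled out.

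The labels do not state separate cultures, so p-values measure the spread between these samples. Footprint libraries of equal number correlated above 0.1 in 15 of 15 pairs (lowest 0.182) after treatment means were removed, which counts as pairing here, but in 3 of 12 pairs without the libraries numbered 4. Footprint libraries of unequal number did so in 34 of 60 pairs, and in 2 of 36 without the libraries numbered 4. RNA libraries of equal number did so in 7 of 12 pairs and those of unequal number in 13 of 36. The main fits hold no replicate block, and calls with the block are given as an alternative.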

Additional observations from a re-analysis of the deposited data

Results flagged for a closer look

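In 132 groups of one member in one assay and treatment, 7 held a library whose distance to its nearest neighbour was large against the range of the group; chance gives about 1 in 20, or 6.6. In 4 of the 5 cases among footprints it was a library numbered 4. MRPL32 footprints were at 141 CPM in LPS+Dex replicate 4 (the others 91.0 to 102 CPM) and at 134 CPM in LPS replicate 4 (the others 88.7 to 99.2 CPM). MRPL14 footprints were at 80.1 CPM in LPS replicate 4 (the others 103 to 110.0 CPM), and MRPL16 footprints at 21.0 CPM in the same library (the others 31.1 to 33.4 CPM). MRPS6 footprints were at 119 CPM in vehicle replicate 5 (the others 84.1 to 92.2 CPM). MRPL40 mRNA was at 30.6 CPM in LPS+Dex replicate 1 (the others 34.3 to 34.9 CPM). MRPS27 mRNA was at 66.4 CPM in LPS replicate 2 (the others 82.2 to 83.8 CPM).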

How the results depend on the processing

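The counts of called members with LPS over vehicle stayed within 1.5 times of 28 (mRNA) and 33 (footprints) under every alternative run, the replicate block included (31 and 47). With the block 66.4% of all genes were called in mRNA and 67.1% in footprints. Leaving out 1 library at a time gave 24 to 32 and 27 to 35 called members. With LPS+Dex over LPS the mRNA count of 9 was 2 without the 3 RNA libraries numbered 4 and 5 to 12 with 1 library left out. The footprint count of 4 was 7 with DESeq2, 1 with no filter on low counts (1 higher, 0 lower, so the majority changed side), 12 with the replicate block, 11 without the 3 footprint libraries numbered 4, and 1 to 6 with 1 library left out. Of all genes 20.5% were called with DESeq2, 10.8% with no filter, 30.9% with the block and 31.5% without the libraries numbered 4. With LPS+Dex over vehicle the mRNA count of 34 was 15 without the RNA libraries numbered 4 and 26 to 40 with 1 library left out. The footprint count of 27 was 41 with the replicate block and 41 without the libraries numbered 4, where the majority changed side to 18 higher and 23 lower; 1 library left out gave 18 to 31, the highest without vehicle replicate 4, with 14 higher and 17 lower. Footprints per mRNA gave 0 calls except 2 (LPS over vehicle) and 6 (LPS+Dex over vehicle) with the replicate block and 1 (LPS+Dex over vehicle) with DESeq2, and 0 to 0 with 1 library left out. The causes were not tested. With raw library totals in place of TMM the summed footprints were 3685 CPM with LPS and 4831 CPM with vehicle, against 4070 and 3996 CPM. Calls of members with raw library totals were not run. Levels per coding length were not run, for want of coding lengths. With at most 146 counts per library, MRPL12 changes rest on little depth.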
